A study of Mus musculus with 7 samples.

Results

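This account covers 10 genes of 3 families that include immediate early genes, in sorted mouse lung leukocytes. They are Egr1, Egr2 and Egr3 (EGR), Klf2, Klf3, Klf6, Klf10 and Klf13 (Krüppel-like factors, KLF), and Ier2 and Ier5 (IER). They were found by gene symbol in a table of 35641 genes, where each symbol had a single row and all 10 passed the filter on low values. The libraries came from female C57BL6 mice in 2 groups that the labels name HF (4 libraries) and LF (3 libraries), without spelling out either name, and the labels give no age. The study's title names obesity and neutrophil oxidative stress. The cells of each group were sorted from lung as CD45+ CD11b+ Ly6Clo Ly6G+, which the labels call neutrophils, and their RNA was prepared with a SMART-Seq kit, which amplifies full-length complementary DNA from little RNA.

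Immediate early genes are transcribed within minutes of a stimulus from factors that are already in the cell, with no need for new protein. Mitogen-activated kinases act on serum response factor with its ETS partners at CArG boxes, on CREB and on MEF2 factors. EGR proteins are zinc finger activators that raise their own corepressors, the NAB proteins. Krüppel-like factors bind CACCC and GC boxes with closely related zinc fingers, and IER proteins are short-lived regulators without a zinc finger. In myeloid cells EGR factors act in monocyte and macrophage differentiation, and Klf2 is known as a restraint on inflammatory activation.

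The libraries labelled LF went against the sort. Ly6g, which encodes the Ly6G protein, stood at 4431, 1301, 2378 and 4944 normalized counts in HF replicates 1 to 4, and at 0.749, 0 and 8.22 in the libraries named LF6, LF7 and LF8 after their columns. The summed level of 14 neutrophil markers ranged from 445186 to 601660 in HF against 13020.3 to 14400.3 in those labelled LF, with no marker at 0 throughout a group. That of 15 monocyte and interstitial macrophage markers ranged from 23674 to 34773 in HF against 159363 to 173539 in those labelled LF, where Ccr2, the chemokine receptor of classical monocytes, averaged 21847 against 909 in HF. The sums of the other marker lists ranged in HF and then in the libraries labelled LF as follows. Alveolar macrophage genes ranged from 9394 to 33932 and from 24148 to 26365, with Marco at 0 throughout HF. B cell genes ranged from 5353 to 11177 and from 6888 to 7661, NK cell genes from 239.9 to 1237 and from 1309.6 to 2096, and endothelial genes from 491 to 789 and from 537 to 668. Platelet genes ranged from 733 to 3257 and from 151 to 343, and eosinophil genes from 2061 to 2500.4 and from 87.7 to 269. The neutrophil, monocyte and interstitial macrophage, NK cell, platelet and eosinophil sums did not overlap between the groups and move with every difference given here. The alveolar macrophage, B cell and endothelial sums overlapped. The part of any of these levels in the differences was not tested. In such bulk samples fewer cells of a type and less RNA per cell cannot be told apart. Each direction below is therefore HF against the libraries labelled LF. Reads assigned to genes ranged from 13943173 to 18983351 per library.

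The sequence upstream of the start site is shown for 4 members, of which Klf2, Klf6 and Ier5 were higher in HF and Klf13 was not called in either direction. Klf3, also higher in HF, is described below without its sequence. RefSeq promoter windows on GRCm38.p6 were found for 6 of the 10 members (Klf2, Klf3, Klf6, Klf13, Ier5 and Egr2). The 250 bases before the start are printed 5′ to 3′ on the gene's strand. Capitals mark matches on either strand to TGACG, to GGGCGG (a GC box, read as CCGCCC on the other strand) and to the MEF2 site, and matches may overlap.
Klf2, chr8:72318812-72319061, plus strand: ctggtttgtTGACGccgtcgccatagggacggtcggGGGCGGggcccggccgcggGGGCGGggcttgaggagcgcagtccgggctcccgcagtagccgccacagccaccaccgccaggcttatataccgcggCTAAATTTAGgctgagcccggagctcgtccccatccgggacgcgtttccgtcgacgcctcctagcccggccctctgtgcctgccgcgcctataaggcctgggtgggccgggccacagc
Klf6, chr13:5861239-5861488, plus strand: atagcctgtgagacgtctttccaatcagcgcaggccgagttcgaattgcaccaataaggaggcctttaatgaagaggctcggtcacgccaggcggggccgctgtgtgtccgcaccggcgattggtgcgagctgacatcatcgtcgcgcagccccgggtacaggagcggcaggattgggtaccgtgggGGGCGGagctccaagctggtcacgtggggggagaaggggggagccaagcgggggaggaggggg
Ier5, chr1:155099637-155099886, minus strand: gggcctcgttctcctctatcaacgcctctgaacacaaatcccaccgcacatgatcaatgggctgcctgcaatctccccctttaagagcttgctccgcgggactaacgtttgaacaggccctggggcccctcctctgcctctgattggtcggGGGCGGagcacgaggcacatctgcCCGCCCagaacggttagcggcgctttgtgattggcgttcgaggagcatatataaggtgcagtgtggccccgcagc
Klf13, chr7:63938916-63939165, minus strand: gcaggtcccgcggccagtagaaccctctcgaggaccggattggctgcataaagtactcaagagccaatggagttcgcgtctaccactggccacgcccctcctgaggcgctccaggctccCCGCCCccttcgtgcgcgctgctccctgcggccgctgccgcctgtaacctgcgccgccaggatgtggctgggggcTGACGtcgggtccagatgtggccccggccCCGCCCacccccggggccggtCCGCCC

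The 5 members with a single window (these 4 and Klf3) all held GGGCGG, which 32.7% of the 32851 RefSeq windows of this length hold. Their windows were richer in G and C than most, from 60% for Ier5 to 78.4% for Klf3, against a median of 52.4% over all windows. The part of this base composition in which motifs were found or not found was not tested. Klf2 and Klf13 held TGACG, which is in 17.8% of windows, and the Klf2 window held the MEF2 site 118 bases before the start, a site found in 2.92% of windows. Within these 5 windows, CArG boxes (1.47% of all windows), TGACGTCA (1.55%), CCGGAAG (6.91%), GCGTGGGCG (0.536%) and CCACACCC (3.2%) were not found. Egr2 has 5 RefSeq windows from alternative starts, 4 of which hold a CArG box. These boxes are 2 distinct sites, each 72 bases before the start of a window. They are shown in capitals with the 10 bases on each side, because the CArG box is the serum response element of this family.
Egr2, chr10:67537484-67537513, plus strand: cggatcttctCCTTTTTTGGaaagtctcgg
Egr2, chr10:67537787-67537816, plus strand: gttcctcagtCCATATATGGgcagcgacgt
A match is a description of the letters only, and which starts were used in these libraries was not measured.

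Most of the 10 genes were higher in HF. With limma on log2(normalized count + 1), 7 were higher (Egr1, Egr3, Klf2, Klf3, Klf6, Ier2 and Ier5), 1 was lower (Klf10) and 2 did not pass an adjusted p of 0.05 (Egr2 and Klf13). Of all 14936 genes tested, 55% were called, 26.2% as higher and 28.7% as lower in HF. The same 7 genes were higher by at least 1 on the log2 scale, against 18.9% of all genes. They also had no overlap between the groups. Of all genes, 62.2% had no overlap, so that share is near the background, but it was 28.4% with HF above and 33.7% with HF below, where 0 of the 10 genes lay. The median log2 difference was 1.26 over the 10 genes and -0.16 over all genes tested. The authors' deposited table, which rests on the same libraries, gave log2 fold changes from -0.46 for Klf10 to 4.14 for Egr1.

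**Figure D1:**
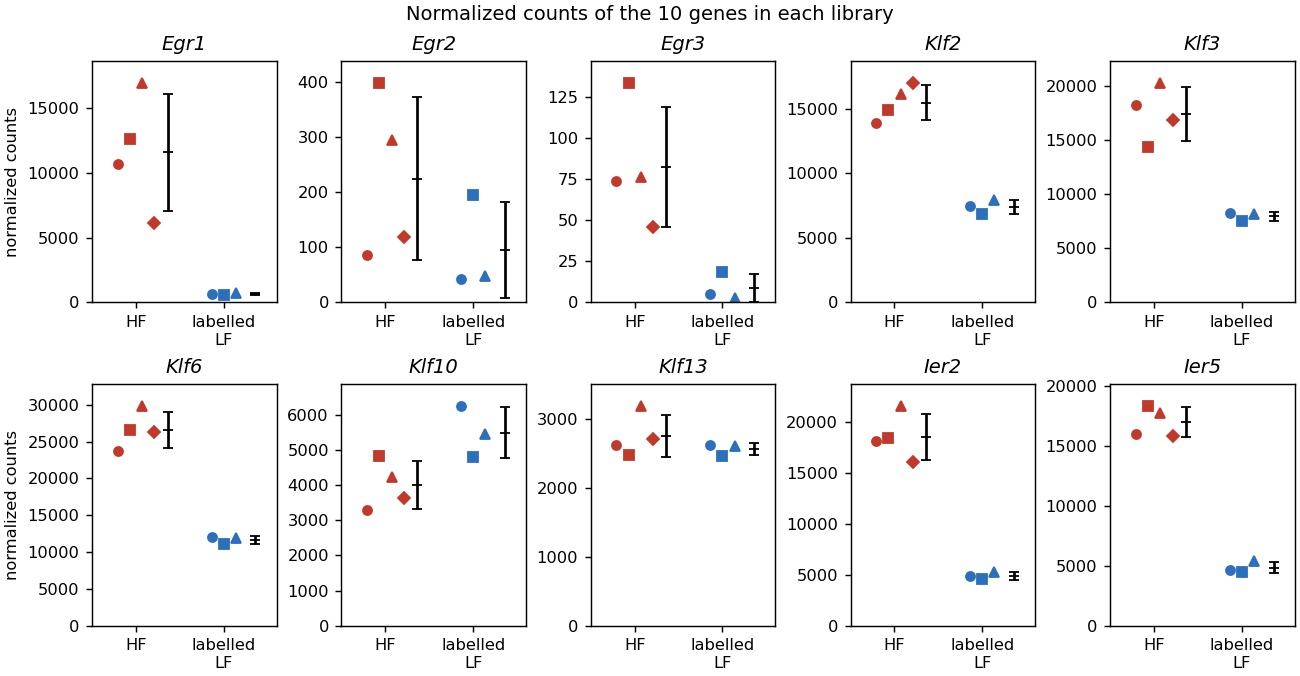
Normalized counts of each gene, on an axis from 0, with a point for each of the 4 HF libraries (red) and the 3 libraries labelled LF (blue), in the order HF1 to HF4 and LF6 to LF8, and the mean with its SD in black. The groups are apart for Egr1, Egr3, Klf2, Klf3, Klf6, Ier2 and Ier5 and overlap for Egr2, Klf10 and Klf13.

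Egr1, the most widely induced zinc finger activator of its family, showed the largest difference of the 10, though without LF7 it was 3.96 on the log2 scale against 4.01 for Egr3. It stood at 10676, 12601, 16947 and 6114 normalized counts in HF replicates 1 to 4 and at 690.05, 571 and 704 in LF6, LF7 and LF8. All 4 HF libraries were high, HF replicate 4 least so, and the 3 libraries labelled LF were close together. The means were 11584 ± 4492 (SD, n = 4) and 655 ± 73.4 (SD, n = 3), a log2 difference of 4.06 ± 0.30 (SE), or 16.6-fold with a 95% interval of 10.2 to 27.0 (limma adjusted p = 1.54e-05). This lay at percentile 96.5 of the differences of all genes tested. Within HF the highest library was 2.77 times the lowest, against 1.23 times among the libraries labelled LF.

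Egr3, a paralog that is itself a target of calcium signalling in lymphocytes, was much lower in count. It stood at 73.8, 134, 76.2 and 46.2 normalized counts in HF and at 5.24, 18.8 and 2.74 in LF6, LF7 and LF8, which are 7, 25 and 4 reads. Every HF library was above every library labelled LF. The log2 difference was 3.33 ± 0.68 (SE), with a 95% interval from 1.76 to 4.90 (limma adjusted p = 0.00379). With a pseudocount of 5 the difference was 2.73, and without LF7 it was 4.01.

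Egr2, known for roles in myelin and in macrophage and T cell programmes, did not pass. It stood at 85.3, 397, 294 and 118 normalized counts in HF and at 42.0, 195 and 47.3 in LF6, LF7 and LF8. LF7 lay above HF replicates 1 and 4, so the groups overlapped. The log2 difference was 1.33 with a 95% interval from -0.31 to 2.97 (limma adjusted p = 0.145). Without LF7 it was 2.03 and passed (limma adjusted p = 0.0418), and over the alternatives run the adjusted p ranged from 0.0418 to 0.373.

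LF7 was the highest of the libraries labelled LF for both Egr2 and Egr3. The summed level of 10 T cell markers was also highest there, at 1433, 3396 and 2206 normalized counts in LF6, LF7 and LF8, and so was the complement gene C1qb of macrophages, at 519, 1361 and 425. The sums of NK cell, alveolar macrophage, endothelial and eosinophil markers were highest in LF7 too, at 2096, 26365, 668 and 269 normalized counts. The sum of the 15 monocyte and interstitial macrophage markers, which include C1qb, was highest in LF6, at 173539 against 165023 in LF7. The neutrophil, B cell and platelet sums were not highest in LF7 either. In HF the T cell sum was highest in replicate 4, at 3520 against 1624 to 1969 in the other libraries, where Egr2 and Egr3 were not high. C1qb stood at 5.76, 66.9, 2028 and 553 in HF replicates 1 to 4, and Egr2 at 85.3, 397, 294 and 118, so they peaked in different HF libraries. The part of these cells in the level of Egr2 and Egr3 was not tested.

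Among the Krüppel-like factors, Klf2, Klf3 and Klf6 were higher in HF by a similar amount. Klf2, which keeps lymphocytes and myeloid cells quiescent, stood at 13907, 14904, 16171 and 17006 normalized counts in HF and at 7461, 6856 and 7932 in LF6, LF7 and LF8. The HF libraries were all above the others, with an SD of 8.83% of the mean in HF and of 7.27% in the libraries labelled LF. The log2 difference was 1.06 ± 0.08 (SE), with a 95% interval from 0.87 to 1.26 (limma adjusted p = 2.24e-05).

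Klf3, a repressor that works through the CtBP corepressors, stood at 18178, 14369, 20232 and 16783 normalized counts in HF and at 8209, 7468 and 8139 in LF6, LF7 and LF8. HF replicate 2, the lowest of its group, was still well above LF6, the highest of the libraries labelled LF. Klf3 showed a log2 difference of 1.12 ± 0.11 (SE; limma adjusted p = 7.31e-05). GENCODE M21 places 2 noncoding genes over Klf3, C230096K16Rik on the same strand and Gm20033 on the opposite strand, with means of 1026 and 101 normalized counts in HF. No source used here says whether counting used strand, and reads in those stretches may be shared.

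Klf6, a transcription factor of activated macrophages and wound responses, stood at 23767, 26507, 29809.6 and 26257 normalized counts in HF and at 11976, 11026 and 11939 in LF6, LF7 and LF8. The groups were far apart and each was narrow. This gave a log2 difference of 1.19 ± 0.08 (SE), with a 95% interval from 1.01 to 1.37 (limma adjusted p = 7.22e-06).

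Klf10 and Klf13 did not follow the other 3. Klf10, first known as an early gene of TGF-beta signalling, stood at 3295, 4844, 4240.4 and 3632 normalized counts in HF and at 6265, 4809.7 and 5456 in LF6, LF7 and LF8. HF replicate 2 was above LF7, so the groups overlapped by a small margin. Klf10 had a log2 difference of -0.47 ± 0.15 (SE; limma adjusted p = 0.0272). The call was lost without HF replicate 1 (limma adjusted p = 0.0543), without HF replicate 4 (0.0614), without LF6 (0.108), without LF8 (0.0729) and with no filter (0.0511). Over the alternatives run the adjusted p ranged from 0.000161 to 0.108.

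Klf13, an activator of Ccl5 in T lymphocytes, stood at 2611, 2476, 3182 and 2708 normalized counts in HF and at 2612, 2459 and 2597 in LF6, LF7 and LF8. The values were interleaved. The log2 difference was 0.10 with a 95% interval from -0.14 to 0.33 (limma adjusted p = 0.439). Its direction turned with the scaling, to -0.42 when totals were made equal (limma adjusted p = 0.0053) and to -0.33 after quantile normalization (0.0109). Relative to the median of all genes it was 0.26 with the authors' size factors, 0.25 with equal totals and -0.25 after quantile normalization. GENCODE M21 also places Gm27252 and E030018B13Rik over Klf13 on the opposite strand, with means of 234 and 8.51 normalized counts in HF.

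Both IER genes were higher in HF, by similar amounts. Ier2, a nuclear regulator induced by growth factors, stood at 18186, 18423, 21586 and 16133 normalized counts in HF and at 4848, 4536 and 5239 in LF6, LF7 and LF8. Every HF library was far above each of those labelled LF. On the log2 scale the difference was 1.93 ± 0.10 (SE), or 3.80-fold with a 95% interval of 3.23 to 4.46 (limma adjusted p = 2.04e-06).

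Ier5, which binds protein phosphatase 2A and acts on heat shock factor Hsf1, stood at 15950, 18284, 17733 and 15818 normalized counts in HF and at 4624, 4479 and 5401 in LF6, LF7 and LF8. Again no library crossed over. Ier5 differed by 1.81 ± 0.09 (SE) on the log2 scale, or 3.51-fold with a 95% interval of 3.05 to 4.04 (limma adjusted p = 1.33e-06).

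How far the KLF and IER genes differed depended on the scaling between libraries. Summed over genes, normalized counts were larger in every HF library than in any labelled LF. Setting equal totals moved the median of all genes by -0.51 on the log2 scale, and 30% of all calls were then higher in HF, against 47.7% with the authors' size factors. The differences of Klf2, Klf3 and Klf6 became 0.54, 0.60 and 0.67 and stayed past the threshold. Relative to the median of all genes they were 1.22, 1.28 and 1.35 with the authors' size factors and 1.21, 1.27 and 1.34 with equal totals. After quantile normalization they were 0.25, 0.29 and 0.17 before that subtraction, and Klf6 no longer passed (limma adjusted p = 0.0946). Quantile normalization also lowered the difference of Ier2 from 1.93 to 1.08 and that of Ier5 from 1.81 to 0.97, both still past the threshold (limma adjusted p = 4.91e-05 and 5.43e-05). With it Egr1 was at 3.85 and Egr3 at 3.80, and with equal totals they were at 3.54 and 2.86.

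**Figure D2:**
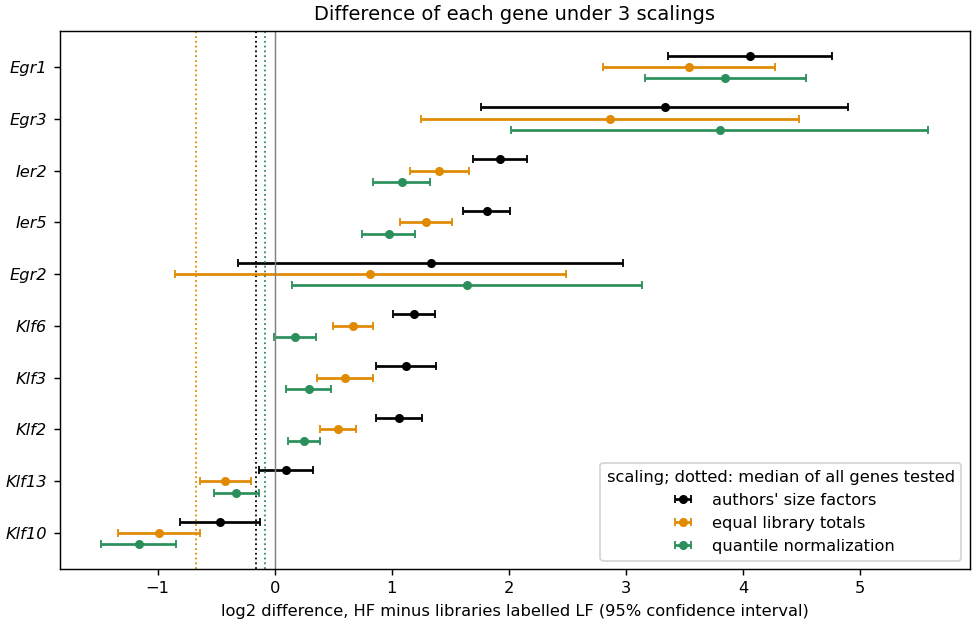
Log2 difference of each gene (HF minus libraries labelled LF) with its 95% confidence interval under the authors' size factors (black), equal library totals (orange) and quantile normalization (green); dotted lines are the median of all genes tested. Egr1, Egr3, Klf2, Klf3, Ier2 and Ier5 stay to the right of 0 with their intervals under each scaling. The interval of Klf6 reaches below 0 after quantile normalization, and Klf13 moves from 0.10 to -0.42 and -0.33.

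A ratio of 2 genes within a library does not depend on scaling. For 8 pairs the log2 ratio, with a pseudocount of 1, was compared by a two-sided exact permutation test over the 7 libraries. That test cannot give a p under 0.0571 with 4 against 3, so no pair could pass 0.05. The Klf2 to Klf13 ratio was 5.33, 6.02, 5.08 and 6.28 in HF and 2.86, 2.79 and 3.05 in LF6, LF7 and LF8. The Klf3 to Klf13 ratio was 6.96, 5.80, 6.36 and 6.20 in HF and 3.14, 3.04 and 3.13 in LF6, LF7 and LF8. Neither ratio overlapped between the groups (exact permutation p = 0.0571, adjusted over 8 pairs 0.0914, for each).

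Klf10 stood at 0.139, 0.183, 0.142 and 0.138 of Klf6 in HF and at 0.523, 0.436 and 0.457 of it in LF6, LF7 and LF8, a log2 difference of the ratio of -1.66 with no overlap (exact permutation p = 0.0571, adjusted 0.0914). The Klf2 to Klf6 ratio was 0.585, 0.562, 0.542 and 0.648 in HF, against 0.623, 0.622 and 0.664 in LF6, LF7 and LF8. These groups overlapped (exact permutation p = 0.171, adjusted 0.229).

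Egr1 stood at 0.587, 0.684, 0.785 and 0.379 of Ier2 in HF and at 0.142, 0.126 and 0.134 of it in LF6, LF7 and LF8. It was therefore higher in HF also relative to Ier2, by 2.13 on the log2 scale with no overlap (exact permutation p = 0.0571, adjusted 0.0914). The Egr1 to Egr2 ratio did not overlap either, with 31.7 as the lowest HF value and 16.4 as the highest of the libraries labelled LF (exact permutation p = 0.0571, adjusted 0.0914). Egr1 to Egr3 overlapped (exact permutation p = 0.514, adjusted 0.514), with LF7 at 30.4 and LF8 at 257. Ier2 to Ier5 ran from 1.01 to 1.22 in HF, against 0.970 to 1.05 in those labelled LF, with overlap (exact permutation p = 0.286, adjusted 0.327).

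**Figure D3:**
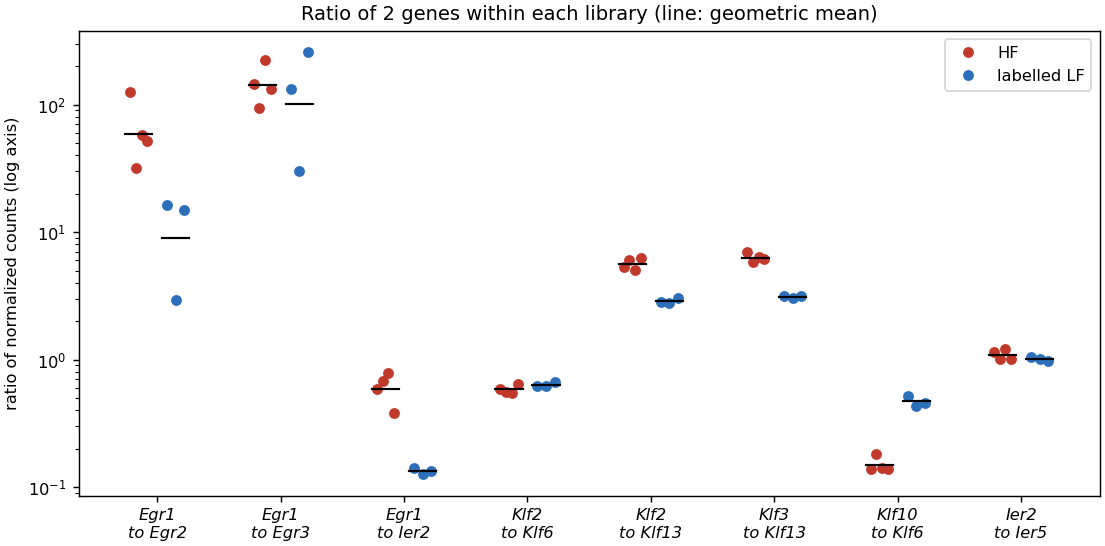
Ratio of the normalized counts of 2 genes within each library on a log axis, with HF in red, libraries labelled LF in blue and the geometric mean of each group as a line. The Klf10 to Klf6 ratio is at most 0.183 in HF and at least 0.436 in the libraries labelled LF, while Ier2 to Ier5 lies near 1 in both.

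The members did not all peak in the same library. In HF, replicate 3 was highest for 5 of the 10 (Egr1, Klf3, Klf6, Klf13 and Ier2) and lowest for 0, replicate 2 was highest for Egr2, Egr3, Klf10 and Ier5, and replicate 4 was highest for Klf2. HF replicate 1 was highest for 0 of the 10. Over all genes tested, HF replicates 1 to 4 were the highest of their group in 23.3%, 25.6%, 23.8% and 27.3%. Replicate 3 was the lowest in 28.2%. Among the libraries labelled LF, LF7 was lowest for 8 of the 10 and highest for the other two, Egr2 and Egr3, and this held with equal library totals too. Over all genes tested LF7 was the lowest of the 3 in 32.8%, and in 27.5% with equal library totals. These are single libraries, and the order carries no test.

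Levels can be set side by side only per length. Divided by the exon length of GENCODE M21, the highest mean level in HF was that of Ier2 at 12209 ± 1479 normalized counts per kilobase (SD, n = 4), followed by Klf2 at 8390.4 ± 740.5 and Klf6 at 6054 ± 565. Klf6 and Ier5 (5173) overlapped in the HF libraries, and so did Egr1 (2584) and Klf3 (1547). Klf10, Klf13, Egr2 and Egr3 followed at 958, 364, 65.8 and 18.7 per kilobase, and the last 2 overlapped. In the libraries labelled LF the order began with Klf2 at 4015 per kilobase, then Ier2 at 3203 and Klf6 at 2652. Egr1 stood above Klf13 in HF and below it in the libraries labelled LF, at 146 against 339 per kilobase.

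Other genes of the families went in either direction. Of 15 further EGR, KLF and IER genes, 13 were in the table and 8 passed the filter on low values, of which 4 were higher and 2 lower in HF, with a median log2 difference of 0.16. Over all genes tested 26.2% were higher and 28.7% lower. Klf5, known from epithelial growth, stood at 599, 341, 611 and 591 normalized counts in HF and at 0, 5.25 and 1.37 in LF6, LF7 and LF8, which are 0, 7 and 2 reads. It was the largest increase of this list, at 7.73 ± 0.62 on the log2 scale (SE; limma adjusted p = 2.39e-05), and ranged from 6.26 to 8.41 over the alternatives.

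Klf4, which drives monocyte differentiation, went the other way, at 38.0, 114, 132 and 163 normalized counts in HF and 1654, 1387 and 1735 in LF6, LF7 and LF8. Its log2 difference was -3.99 ± 0.46 (SE; limma adjusted p = 0.000175), opposite in sign to that of Klf2. Klf9, a target of glucocorticoid receptor, was lower as well, by a log2 difference of -1.68 ± 0.38 (SE; limma adjusted p = 0.006).

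Ier3, an early gene of survival signalling, stood at 3359, 3719, 3722 and 4342 normalized counts in HF and at 108, 203 and 119.9 in LF6, LF7 and LF8. The log2 difference of 4.76 ± 0.22 (SE; limma adjusted p = 1.09e-06) exceeded those of Ier2 and Ier5. Klf7 was higher by 1.85 ± 0.17 (SE; limma adjusted p = 5.36e-05). Klf11, the closest paralog of Klf10, was higher by 0.69 (limma adjusted p = 0.041). That call was lost with equal library totals (0.557), with no filter (0.0771), without HF replicate 1, 3 or 4 (0.0857, 0.0678 and 0.0527) and without LF6 or LF7 (0.123 and 0.133). Ier5l did not pass the filter, with 0 reads in all 4 HF libraries and 13.5, 8.26 and 6.16 normalized counts in LF6, LF7 and LF8.

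Immediate early genes of other families were mostly higher too. Of 12 such genes 8 were higher and 2 lower, against 26.2% and 28.7% of all genes tested, with a median log2 difference of 1.22, close to the 1.26 of the 10 members. The AP-1 subunit gene Junb was higher by 2.30 ± 0.09, the antiproliferative gene Btg2 by 1.99 ± 0.08 and the phosphatase gene Dusp1 by 1.93 ± 0.06 on the log2 scale (SE; limma adjusted p = 4.81e-07, 6.54e-07 and 2.1e-07). Nr4a1, a nuclear receptor needed by nonclassical monocytes, was lower at -0.97 ± 0.20, and so was Jun at -0.67 ± 0.19 (SE; limma adjusted p = 0.00389 and 0.0163). The call of Jun was lost without LF8 (limma adjusted p = 0.0637), those of Fosb and Rhob with equal library totals (0.43 and 0.213), and that of Fosb also without HF replicate 2 (0.0548), LF6 (0.0698), LF7 (0.0506) or LF8 (0.0795).

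Among 18 kinases and promoter factors upstream of these genes, 5 were higher and 6 lower in HF, and the remaining 7 stayed under the threshold, with a median log2 difference of 0.01. These shares are close to the 26.2% higher and 28.7% lower of all genes tested. The 5 higher, Creb1, Srf, Mrtfa, Map2k2 and Mapk3, differed by 0.48 to 0.71. With equal library totals 0 of them passed in limma (0 also at an unadjusted p of 0.05). Without equal totals, edgeR and DESeq2 on recovered reads each called 5, as did limma. Mapk3 and Mrtfa also did not pass after quantile normalization (limma adjusted p = 0.387 and 0.233), nor Map2k2 without LF6 (0.0555). Srf, which binds the CArG box, was higher by 0.62 ± 0.20 (SE; limma adjusted p = 0.0324). Its call was also lost with no filter (0.0701), without LF6, LF7 or LF8 (0.0696, 0.0883 and 0.113) and without HF replicate 1 or 3 (0.0644 and 0.0576).

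The genes that were lower included the partner of Srf, Elk3, at -2.95 ± 0.37, and Mef2c at -2.41 ± 0.26 (SE; limma adjusted p = 0.000268 and 0.000127). Map2k1 was lower at -0.78 ± 0.15 and Mef2a at -0.59 ± 0.09 (SE; limma adjusted p = 0.00313 and 0.000815). Both of these calls held under every alternative run. Of the kinase cascade that acts on MEF2 factors at the Klf2 promoter, Map2k5 was lower at -1.79 ± 0.18 (SE; limma adjusted p = 7.34e-05). Mapk7, the kinase below it, was lower at -0.90 ± 0.27 (SE; limma adjusted p = 0.0224), a call lost without HF replicate 2 (0.0507), LF6 (0.0656), LF7 (0.0588) or LF8 (0.0713).

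Of the 12 partners, corepressors and known targets reported here, 1 was higher and 7 lower, with a median log2 difference of -1.22, against 26.2% higher and 28.7% lower over all genes tested. The EGR corepressor Nab1 stood at 1032, 1255, 1250.15 and 938 normalized counts in HF and at 3269, 3293 and 3894 in LF6, LF7 and LF8, while Egr1 was high in the same HF libraries. Its log2 difference was -1.65 ± 0.14 (SE; limma adjusted p = 2.62e-05). Nab2, which EGR proteins are known to induce, was lower as well, at -2.03 ± 0.69 (SE; limma adjusted p = 0.036). That call was lost in edgeR (adjusted p = 0.0586), with no filter (limma adjusted p = 0.0636), by quantile normalization (0.0843), and without HF replicate 4 (0.0738), LF6 (0.0693), LF7 (0.0914) or LF8 (0.117).

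Among targets of Klf2, the integrin gene Itgb7 was lower at -1.28 ± 0.14 and the thrombomodulin gene Thbd, a Klf2 target in endothelium, at -1.58 ± 0.21 (SE; limma adjusted p = 0.000117 and 0.000431). S1pr1 differed by 0.35 and did not pass (limma adjusted p = 0.473). The CtBP genes Ctbp1 and Ctbp2, which work with Klf3, were lower at -0.66 ± 0.10 and -1.16 ± 0.25, and Hsf1, on which Ier5 acts, at -0.92 ± 0.16 (SE; limma adjusted p = 0.00097, 0.00478 and 0.0015). Smad7 was higher by 1.21 ± 0.28 (SE; limma adjusted p = 0.00664), a call lost with equal library totals (0.0584).

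**Figure D4:**
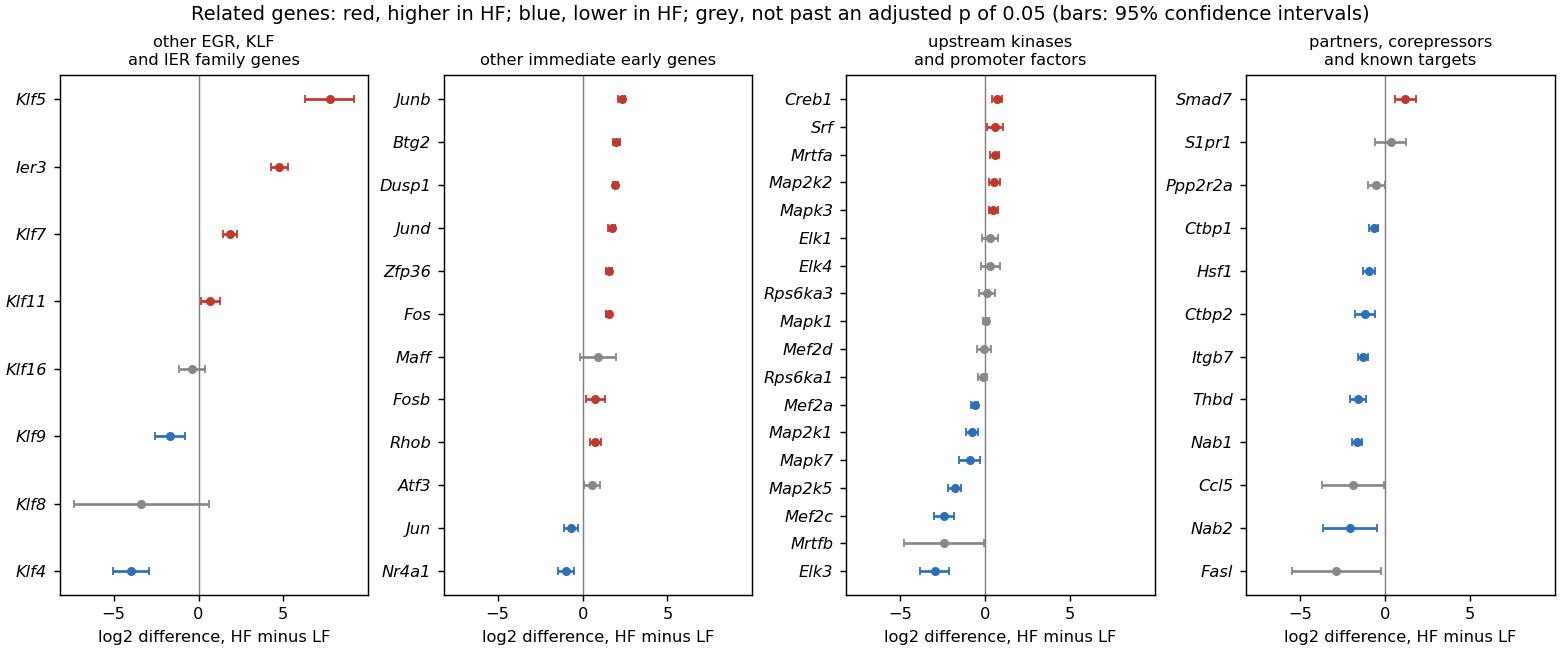
Log2 difference (HF minus libraries labelled LF) with its 95% confidence interval for the tested genes of 4 related lists, with genes higher in HF in red, lower in blue and those not past an adjusted p of 0.05 in grey. The families split between Klf5 at 7.73 and Klf4 at -3.99, and the upstream genes lie on both sides of 0.

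Genes with the most similar values over the 7 libraries were taken by the root-mean-square distance between centred log2 values, among 9557 genes averaging 50 or more, after symbols of pseudogenes, clones, predicted genes and antigen receptor segments were dropped. For Klf2 the nearest were Son at 0.0341 and Tlr13 at 0.0446, for Klf3 Mid1ip1 at 0.0377 and Rara at 0.0607, and for Klf6 Mmgt1 at 0.0448 and Zfp740 at 0.0536. Snrk was nearest to both Ier2 (0.0527) and Ier5 (0.0701), followed by Btg2 for Ier2 (0.0695) and by Txnip for Ier5 (0.082). The nearest genes of the 3 EGR members were farther away, with Cdkl3 at 0.269 and Jph3 at 0.334 for Egr1, N4bp3 at 0.442 and Mylk at 0.479 for Egr3, and Lig4 at 0.586 and Col4a2 at 0.63 for Egr2. For Klf10 they were Zc3h8 (0.101) and Mcur1 (0.104), and for Klf13 Tmed10 (0.0425) and Abcf3 (0.0578). Son differed between the groups by 1.06 on the log2 scale, as did Klf2. Such a match follows from the choice, since the distance includes the difference between the groups.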

How the data were processed

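The deposited table holds, per its name and the file headers, normalized counts of 7 libraries, a signal that is never negative, with the authors' mean, log2 fold change, its error, a score for the test, and p-values. Tools listed without roles in the submitters' processing notes are DESeq2 1.20.0, STAR 2.6.1b and featureCounts 1.6.3. The genome build is not given in the sources used here. Dividing each column by its smallest step gave whole reads for 100% of values (tolerance 0.01), and edgeR on them with the authors' size factors called 7624 genes.

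Genes averaging 10 or more normalized counts were tested in R 4.3.3 by limma 3.58.1, with its trend option, on log2(normalized count + 1), with Benjamini-Hochberg adjustment over all 14936 genes and a threshold of 0.05. This scale understates the change of low genes. The columns LF6, LF7 and LF8 show their group and none of the labels' replicate numbers, and 0 library columns were left out. Alternatives were other pseudocounts, filters and scalings, array weights, edgeR 4.0.16, DESeq2 1.42.0 and each library left out in turn. Within groups no 2 libraries agreed within sampling noise (median chi-square per gene 12.1 to 16.2 between HF libraries and 2.29 to 3 between those labelled LF, against 0.455 for noise alone). The labels give 4 HF and 3 LF mice but do not tie each library to a mouse, and p-values rest on the spread among libraries. The tests were tried on simulated data. Ratios used scipy 1.17.1 and figures matplotlib 3.10.9. The members and lists were chosen with earlier results of these data known. All members are named, and of other lists mainly the genes with the largest changes in each direction and the highest mean. Promoter windows are from RefSeq (GRCm38.p6) and exon lengths from GENCODE M21. A gene of the list of partners and targets is not reported here.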

Additional observations from a re-analysis of the deposited data

Results flagged for a closer look

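Among the 60 tested genes of the members and the 4 related lists, 5 had an HF library far from the other 3 relative to the range of the 4, by Dixon's test, and none of these was a member. Chance gives such a gap in about 1 in 20 groups. Klf5 stood at 341 normalized counts in HF replicate 2, against 591 to 611 in the others. Ctbp2 was also low in HF replicate 2, at 198 against 344 to 366. Elk1 stood at 182 in HF replicate 3, against 241 to 249. The T and NK cell ligand gene Fasl stood at 26.9 in HF replicate 3, against 0 to 3.86. Maff stood at 56.6 in HF replicate 2, against 33.4 to 36.9.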

How the results depend on the processing

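The count of members higher in HF was 7 in the main test, 6 after quantile normalization, 8 without LF7 and 7 under the other alternatives run. The count of members lower in HF (1, Klf10) was 0 with no filter in limma (1 at an unadjusted p of 0.05), 2 when totals were made equal, 2 after quantile normalization, and 0 to 1 with a library left out. The cause was not tested. In edgeR and DESeq2 it was 1. Klf13 reversed to -0.42 when totals were made equal and to -0.33 after quantile normalization. Relative to the median of all genes it stayed positive with equal totals, at 0.25. Of the upstream genes, 0 were higher and 10 lower with equal library totals, and 3 to 5 were higher with a library left out. Of the partners and targets, 0 were higher in limma with equal library totals (1 at an unadjusted p of 0.05). Without equal totals, edgeR and DESeq2 each called 1 higher, as did limma. Of the other immediate early genes 1 to 2 were lower with a library left out. The log2 difference of the Egr1 to Egr3 ratio was 0.72 with a pseudocount of 1. It ranged from -0.0492 without LF7 to 1.32 with a pseudocount of 5, and was 1.30 without LF8. No paired analysis was possible because the LF columns carry none of the labels' replicate numbers. The labels also do not pair any HF mouse with an LF mouse, so a shared replicate number would not by itself show a pairing. Egr3 rests on low counts, with 4 to 25 reads in the libraries labelled LF.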
